A study of Homo sapiens with 10 samples.

Results

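Regulators and markers of the epithelial-mesenchymal transition (EMT) were followed in MIA PaCa-2 cells exposed to hydroxyprogesterone caproate (HPC). The 10 genes were chosen by name. They comprised the transcription factors SNAI1, SNAI2, ZEB1, ZEB2 and TWIST1 and the markers VIM, FN1, CDH1, CDH2 and EPCAM. Of these, 8 had a row among the 16734 genes of the expression table, and TWIST1 and CDH2 were not analysed here. MIA PaCa-2 is an established human pancreatic carcinoma cell line, and HPC is a synthetic progestin, an ester of hydroxyprogesterone. One group of 5 libraries came from cells kept in 10 µM HPC for 24 h, and the other 5 from cells given the same volume of DMSO, the solvent, for 24 h. The study compared the transcriptomes of these groups by poly(A) RNA sequencing. The labels call the libraries biological replicates but name no culture, day or batch, so every p-value measures the spread between these libraries, which may in part be technical.

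In the transition, epithelial cells give up the junctions that tie them to their neighbours and take on a motile, mesenchymal form. Factors of the SNAI, ZEB and TWIST families drive it, in large part by repressing CDH1, which encodes the adhesion molecule E-cadherin. SNAI and ZEB proteins bind E2-box sequences and recruit corepressors there, while the intermediate filament protein vimentin (VIM), N-cadherin (CDH2) and fibronectin (FN1) rise and the epithelial surface protein EPCAM falls. In pancreatic carcinoma, loss of E-cadherin and gain of vimentin are the usual signs of the mesenchymal state.

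Levels are deposited FPKM, which divide the fragments of a gene by its length and by the size of the library. Counts recovered from the table summed to 71603127 to 82219086 per DMSO library and 65851927 to 74477678 per HPC library. Mitochondrially encoded genes held 21.92 to 23.79% of the summed FPKM with DMSO and 13.84 to 15.86% with HPC, so the FPKM of every other gene rests on a sum that differed between the groups. Fold changes are on the log2(FPKM + 0.1) scale and come from limma with Benjamini-Hochberg adjustment over the 9150 genes that reached 1 FPKM in 5 or more libraries. The response was broad: 3922 of those genes (42.9%) were higher and 4099 (44.8%) lower with HPC, and the median log2 fold change was -0.01. When values were scaled to the sum over non-mitochondrial genes instead, that median moved to -0.18 and the lower genes rose from 51.1% to 62.9% of all calls. Of 10 markers of pancreatic ductal cells, 2 reached a mean of 1 FPKM in a group, KRT19 and SOX9, and 5 stayed below 0.1 FPKM in both groups. Few of these ductal markers thus reached 1 FPKM, and the sample labels do not call the cells ductal.

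The promoters of these genes were searched for the E2-box that SNAI and ZEB proteins recognise, CACCTG or, on the other strand, CAGGTG. RefSeq (GRCh38.p14) start sites were matched for 4 of the 8 genes (VIM, FN1, ZEB1 and ZEB2), with 10 windows of 300 bases, 250 before and 50 after the start. The motif occurred in 7231 of 35116 windows of that length (20.6%). The windows of VIM, FN1 and ZEB2 held no match, and 2 of the 7 windows of ZEB1 did. The 250 bases before the start are shown for VIM, the marker that changed (chr10:17227991-17228240, plus strand) and for ZEB1, the regulator that changed and has a window, at the start site with the most matches, chosen after the search (chr10:31318966-31319215, plus strand). Capitals mark the motif.
VIM: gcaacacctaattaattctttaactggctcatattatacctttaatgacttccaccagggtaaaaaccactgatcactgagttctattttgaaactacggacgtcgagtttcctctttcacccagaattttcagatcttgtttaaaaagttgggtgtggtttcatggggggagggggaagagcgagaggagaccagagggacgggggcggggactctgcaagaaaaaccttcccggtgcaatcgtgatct
ZEB1: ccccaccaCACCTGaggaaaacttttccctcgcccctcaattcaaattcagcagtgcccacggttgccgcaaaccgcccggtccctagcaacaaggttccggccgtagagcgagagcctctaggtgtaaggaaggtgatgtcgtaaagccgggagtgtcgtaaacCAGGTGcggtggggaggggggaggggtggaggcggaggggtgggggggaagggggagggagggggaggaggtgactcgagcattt
The ZEB1 matches in capitals begin 242 and 85 bases before the start, and the same window held a further CAGGTG 33 bases after it. A second ZEB1 window held CAGGTG 57 bases before its start. These matches describe the letters of the windows and are not evidence of binding.

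Of the 8 genes, 3 passed the filter on low values, and each changed: SNAI1 and ZEB1 rose and VIM fell with HPC. This share stands beside a background in which 87.7% of all tested genes were called, and in which the libraries of the 2 groups did not overlap for 79.6%. The calls alone therefore do not set these genes apart from the rest. At a threshold of 1.5-fold (limma treat), which 29.3% of tested genes passed, SNAI1 was higher and VIM lower, while ZEB1 was not called (adjusted p = 1). In bulk RNA, fewer cells of a type and less RNA per cell cannot be told apart.

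SNAI1 (chromosome 20, 49982999-49988886, plus strand, GRCh38), which encodes the repressor Snail, had the largest change of the 3. Its FPKM in DMSO libraries 1 to 5 was 1.396, 1.201, 1.433, 1.309 and 1.269. In HPC libraries 1 to 5 it was 6.967, 6.871, 5.289, 4.374 and 5.119. Each HPC library lay above each DMSO library, with libraries 1 and 2 the highest and library 4 the lowest of the HPC group. The mean went from 1.32 ± 0.0942 to 5.72 ± 1.145 FPKM (SD, n = 5 each). The log2 fold change was 2.01 (SE 0.12, 95% interval 1.76 to 2.27, limma adjusted p = 9.90e-09), a 4.04-fold rise. A rise at least as large was seen in 182 tested genes (1.99%). By level in deposited FPKM, SNAI1 moved from rank 8140 to rank 3411 among the 16734 genes. Its HPC libraries were also widely spread, with a coefficient of variation of 20% against 7.13% for its DMSO libraries. The median over tested genes was 4.86% for the HPC group and 4.09% for the DMSO group, and 208 genes had an HPC value at least as large as that of SNAI1.

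ZEB1 (chromosome 10, 31318495-31529814, plus strand), a zinc-finger and homeodomain repressor of CDH1, rose less. Its FPKM was 1.267, 1.273, 1.219, 1.351 and 1.343 in DMSO libraries 1 to 5. In HPC libraries 1 to 5 it was 1.901, 1.785, 1.697, 1.851 and 1.818. The groups did not overlap, and both were tight. The mean went from 1.29 ± 0.0557 to 1.81 ± 0.0765 FPKM (SD, n = 5 each), a log2 fold change of 0.46 (SE 0.043, 95% interval 0.36 to 0.55, limma adjusted p = 2.72e-07) or 1.37-fold. A rise of this size or more was seen in 2009 tested genes (22.0%), so ZEB1 lay well inside the general spread of changes. ZEB1 and its antisense gene ZEB1-AS1 overlap on the genome, and the sources do not say whether counting used strand. VIM and VIM-AS1 overlap in the same way.

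VIM (chromosome 10, 17228259-17237593, plus strand), which encodes the intermediate filament protein of mesenchymal cells, moved the opposite way. Its FPKM in DMSO libraries 1 to 5 was 683.0, 718.5, 681.7, 694.0 and 699.1. In HPC libraries 1 to 5 it was 333.7, 323.9, 322.4, 346.0 and 336.7. The lowest DMSO library was far above the highest HPC library, and neither group had a library that stood apart. The mean fell from 695 ± 14.9 to 332.5 ± 9.71 FPKM (SD, n = 5 each). The log2 fold change was -1.06 (SE 0.024, 95% interval -1.12 to -1.01, limma adjusted p = 1.45e-13), or 2.09-fold lower, and 824 tested genes (9.01%) fell at least as far. VIM still ranked 25 of 16734 genes by FPKM with HPC, against 18 with DMSO. The cells thus kept a high vimentin transcript level while it fell, as SNAI1 and ZEB1 transcripts rose.

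**Figure D1:**
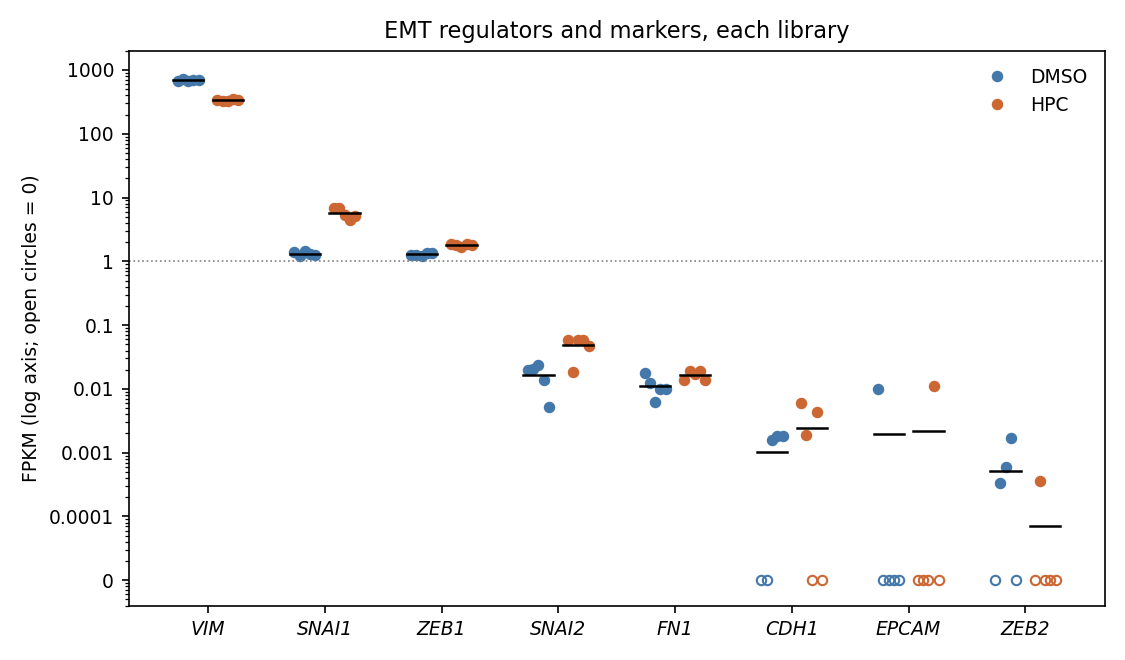
FPKM (log axis) of the 8 genes in each of 5 DMSO and 5 HPC libraries; filled points are libraries, open circles are libraries at 0, bars are group means and the dotted line is 1 FPKM. VIM fell from 695 to 332.5 FPKM, SNAI1 rose from 1.32 to 5.72 and ZEB1 from 1.29 to 1.81, while the other 5 genes stayed below 0.1 FPKM in each library.

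**Figure D2:**
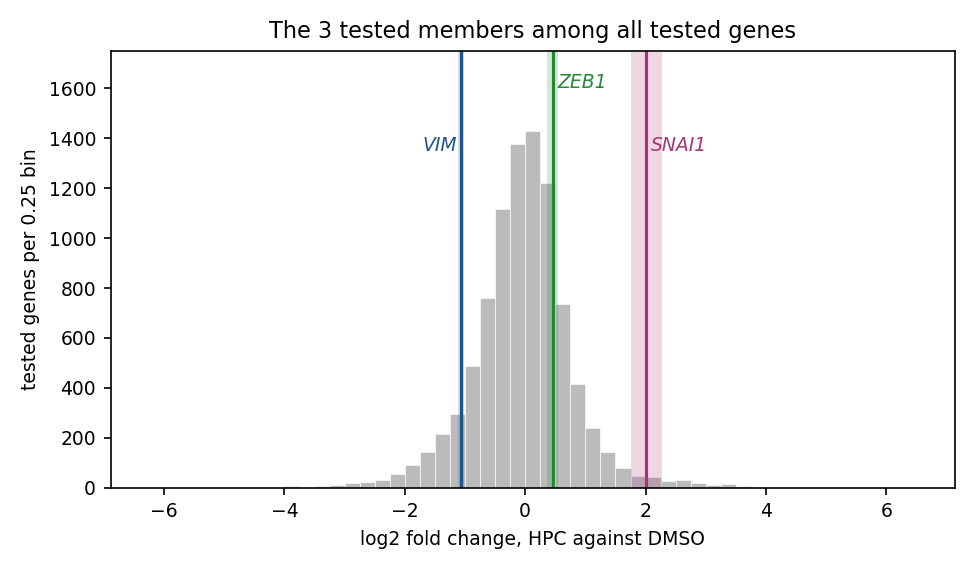
Number of tested genes (9150 in all) by log2 fold change with HPC, in bins 0.25 wide; lines mark VIM (-1.06), ZEB1 (0.46) and SNAI1 (2.01), and shaded bands their 95% intervals. SNAI1 lies in the upper tail, VIM in the lower flank and ZEB1 inside the main body of the distribution.

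The other 5 genes, SNAI2, FN1, CDH1, EPCAM and ZEB2, stayed below 0.1 FPKM in each library and did not pass the filter. They were compared by an exact two-sided permutation test over the 252 assignments of libraries to groups, whose smallest possible p is 0.00794. These 5 p-values are not adjusted. Among the 7584 genes below the filter, 2481 (32.7%) had groups that did not overlap, and none of the 5 did. A fit by limma without the filter, which called 67.4% of 16734 genes, was run beside it.

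SNAI2 (chromosome 8, 48917604-48921740, minus strand), which encodes the repressor Slug, was low but detected in each library. Its FPKM was 0.02002, 0.02032, 0.02412, 0.01385 and 0.005194 in DMSO libraries 1 to 5. In HPC libraries 1 to 5 it was 0.0593, 0.01814, 0.05826, 0.05828 and 0.04707. HPC libraries 1, 3, 4 and 5 lay above each DMSO library and HPC library 2 lay inside the DMSO range. The mean was 0.0167 ± 0.00741 FPKM with DMSO and 0.0482 ± 0.0175 with HPC (SD, n = 5 each). The difference was 0.34 on the log2(FPKM + 0.1) scale, which understates changes at this level (exact permutation p = 0.0317). Leaving out any single library other than HPC library 2 gave exact permutation p-values of 0.0317 to 0.0397. Without HPC library 2 the groups no longer overlap, so the exact permutation p takes its smallest possible value, 0.00794, and adds no support. The fit without a filter gave an adjusted p of 0.00441 (limma). SNAI2 thus read higher with HPC, by an exact p that is not adjusted for the 5 genes. Its level was low in both groups, where 134 counts in all 5 HPC libraries stood against 51 in the DMSO libraries.

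FN1 (chromosome 2, 215360440-215436172, minus strand), which encodes the matrix protein fibronectin, read 0.01757, 0.01226, 0.006192, 0.01008 and 0.009825 FPKM in DMSO libraries 1 to 5. In HPC libraries 1 to 5 it read 0.01355, 0.01937, 0.01703, 0.01909 and 0.01392. DMSO library 1 was inside the HPC range, and the other DMSO libraries were below it. FN1 was detected in each library, with 447 counts over the DMSO libraries and 616 over the HPC libraries. The means were 0.0112 ± 0.00418 and 0.0166 ± 0.00276 FPKM (SD, n = 5 each), an exact permutation p of 0.0476. That value passed 0.05 narrowly: it was 0.143 after scaling to non-mitochondrial genes, and the limma fit without a filter gave an adjusted p of 0.101. Leaving out any single one of DMSO libraries 2 to 5 or HPC libraries 2 to 4 gave exact permutation p-values of 0.0794 to 0.103.

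CDH1 (chromosome 16, 68737225-68835548, plus strand), which encodes E-cadherin, was at the limit of detection in both groups. Its FPKM was 0, 0, 0.001565, 0.001797 and 0.001798 with DMSO and 0.006064, 0.001884, 0, 0.004392 and 0 with HPC. In each group 3 of 5 libraries were above 0, and the values overlapped (exact permutation p = 0.278). EPCAM (chromosome 2, 47345158-47387601, plus strand), an epithelial adhesion protein, was above 0 in DMSO library 1 (0.009847) and HPC library 4 (0.0111), with an exact permutation p of 1. ZEB2 (chromosome 2, 144364364-144524583, minus strand), the close relative of ZEB1, read 0, 0.000332, 0.000591, 0.001696 and 0 with DMSO. Of the HPC libraries, library 2 was above 0 for ZEB2, at 0.000355 (exact permutation p = 0.286). No difference of CDH1, EPCAM or ZEB2 was detectable at this depth. Antisense or overlapping genes are annotated at CDH1, EPCAM and ZEB2 too.

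The deposited FPKM divide by an unusual length, which bears on comparisons between genes. The length implied by the smallest step of each gene's values lay within 1% of the summed length of all its annotated transcripts (GENCODE 29) for 76.4% of 15183 genes, and within 1% of the merged exon length for 6.3%. Genes with many transcripts are thereby shown too low: by 6.94 times for ZEB1, with 25 transcripts, by 2.65 times for VIM, and by 6.24 times for FN1. SNAI1 has 1 transcript and is not lowered, so its ranks by deposited FPKM, given above, are too high against genes that are. As deposited, SNAI1 and ZEB1 could not be ordered with DMSO, since their libraries overlapped, and SNAI1 was above ZEB1 with HPC. Per kilobase of merged exons, ZEB1 was above SNAI1 in both groups: 8.96 ± 0.387 against 1.32 ± 0.0942 FPKM with DMSO, and 12.6 ± 0.531 against 5.72 ± 1.14 with HPC (SD, n = 5). On the same scale VIM was at 1850 ± 39.6 with DMSO and 883 ± 25.8 with HPC. FN1 (0.0698 ± 0.0261 with DMSO and 0.104 ± 0.0173 with HPC) overlapped SNAI2 (0.0389 ± 0.0172 and 0.112 ± 0.0408) within these SDs in both groups. Fold changes within a gene were little affected, at 2.01 for SNAI1, 0.48 for ZEB1 and -1.06 for VIM on the log2 scale.

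The genes around these 8 were described by list. A gene is said to rise or fall where limma called it (adjusted p under 0.05), and values in brackets after FPKM are log2 fold changes. For genes that reach low FPKM in a group, the size of that value depends on the pseudocount. Each list's counts stand beside 42.9% higher and 44.8% lower over all tested genes, and the lists' medians depend on which low genes are tested. A gene that passed the filter through 1 group alone could be called in 1 direction only. Among others, this holds for ELF3, RBM47, JUP, CDH5, COL1A2, NES, FBLN1 and EHMT2 through DMSO. It holds for CCN2 and NECTIN1 through HPC. Other transcription factors linked to the transition were divided. Of 22 listed, 20 had a row and 10 were tested, and 5 rose and 5 fell (50% each, against 42.9% and 44.8% of all tested genes). FOSL1, an AP-1 subunit, rose from 5.57 ± 0.145 to 17.3 ± 0.853 FPKM (log2 fold change 1.62), and ETS1 from 3.20 ± 0.0360 to 7.72 ± 0.476 (1.24). SOX9, which also marks ductal cells, fell from 24.7 ± 0.378 to 8.72 ± 0.814 (-1.50) and SOX4 fell by 1.12 on the log2 scale. The list's median of -0.04 (-0.01 for all tested genes) had no stable sign: it was 0.22 with a filter of 0.1 FPKM, 0.47 with one of 5 FPKM and -0.20 when scaled to non-mitochondrial genes.

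Factors that maintain the epithelial state were mostly low. Of 16 with a row, 11 were below the filter, among them ESRP1 and ESRP2, the epithelial splicing regulators, at means of 0.0196 and 0.00615 FPKM with DMSO and 0.0112 and 0.00825 with HPC (named after their values were seen). Of the 5 tested, 3 fell, 1 rose and 1 was not called (60% lower and 20% higher, against 44.8% and 42.9% of all tested genes). Of the 3 that fell, ELF3 and RBM47 passed the filter through their DMSO libraries alone, so a call could only be lower. The median log2 fold change of -1.60 rests on these few genes: it was -0.10 with a filter of 0.1 FPKM, with 3 higher and 4 lower of 9 tested, -0.10 also with 5 FPKM or no filter, and -0.85 with merged exon lengths. ELF3, an epithelial ETS factor, fell from 1.26 ± 0.103 to 0.148 ± 0.0266 FPKM (-2.46, and -0.98 with a pseudocount of 1), and RBM47, an RNA-binding protein, from 1.34 ± 0.0278 to 0.226 ± 0.0682 (-2.16, and -0.93 with a pseudocount of 1). KLF4 rose by 0.55 on the log2 scale. EHF (named after its values were seen) fell from 25.2 ± 6.28 to 8.47 ± 2.98 FPKM.

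Genes of epithelial adhesion and junctions, many of them repressed by SNAI1 and ZEB1 in other systems, moved both ways. Of 44 with a row, 19 were tested, and 9 rose, 8 fell and 2 were not called (47.4% higher and 42.1% lower, against 42.9% and 44.8% of all tested genes). The tight-junction genes CLDN1 and OCLN had the largest rises: claudin 1 went from 17.3 ± 1.21 to 76.2 ± 3.05 FPKM (log2 fold change 2.14) and occludin from 1.59 ± 0.111 to 5.51 ± 0.222 (1.73). The desmosome genes JUP (plakoglobin) and PKP3 (plakophilin 3) fell most, from 2.62 ± 0.139 to 0.569 ± 0.0460 FPKM (-2.02) and from 4.00 ± 0.135 to 1.18 ± 0.0830 (-1.68). CLDN4, named after its values were seen, fell by 1.57 on the log2 scale. The median of 0.05 had no stable sign: it was -0.12 when scaled to non-mitochondrial genes, with 8 higher and 10 lower, -0.04 after quantile normalization, -0.06 with a filter of 0.1 FPKM and 0.37 with one of 5 FPKM.

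The keratins paired with vimentin as filament proteins are given here, chosen after their values were seen. In deposited FPKM, KRT18 rose from 114 ± 3.98 to 149.9 ± 3.43 and KRT8 from 51.8 ± 1.25 to 57.7 ± 2.41. The rise of KRT8 was small and depends on the library sum. Scaling to non-mitochondrial genes moved the median log2 fold change of all tested genes from -0.01 to -0.18. The ratio of VIM to KRT18 in FPKM, which does not depend on the library sum, was 5.73, 6.14, 6.01, 6.22 and 6.40 in DMSO libraries 1 to 5. It was 2.25, 2.18, 2.16, 2.22 and 2.27 in HPC libraries 1 to 5, below each DMSO value. The level of vimentin transcripts relative to those of keratin 18 was thus lower in the HPC libraries than in the DMSO libraries. This does not hold for each keratin. KRT19, a keratin of ductal cells, fell from 24.0 ± 1.69 to 10.1 ± 1.11 FPKM (-1.25). VIM fell by 1.06 on the same scale, so it was not lower relative to KRT19. KRT7, below the filter, had means of 0.226 FPKM with DMSO and 0.0352 with HPC.

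Among 27 classical cadherins, catenins and their partners with a row, 10 were tested, and 4 rose, 5 fell and 1 was not called (40.0% higher and 50% lower, against 42.9% and 44.8% of all tested genes). The median of -0.24 had no stable sign: it was 0.50 over the 2 genes tested at a filter of 5 FPKM, -0.48 at 0.1 FPKM, -0.01 with no filter and -0.40, with 2 higher and 6 lower, when scaled to non-mitochondrial genes. CDH5, or VE-cadherin, was the single classical cadherin whose mean reached 1 FPKM in either group. It went from 1.42 ± 0.0422 FPKM with DMSO to 0.0124 ± 0.00659 with HPC, a fitted log2 fold change of -3.76 whose size is set by the pseudocount (-1.26 with 1 and -6.04 with 0.01). CDH5 is a gene of endothelial cells, and of the 6 endothelial markers with a row, 4 were below 0.1 FPKM in both groups. The remaining marker, EMCN, was below the filter, with means of 0.7125 FPKM with DMSO and 0.1255 with HPC. CTNNA1, the alpha-catenin that links cadherins to actin, rose from 12.4 ± 0.252 to 22.1 ± 0.2503 FPKM (0.83). NECTIN1, an adhesion receptor of the same junctions, rose by 0.33.

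Mesenchymal effector genes moved both ways. Of 48 with a row, 24 were tested, and 13 fell, 7 rose and 4 were not called, with a median of -0.26 (54.2% lower and 29.2% higher, against 44.8% and 42.9% of all tested genes). The median was -0.79 with a filter of 5 FPKM and -0.43 when scaled to non-mitochondrial genes, while with no filter it was 0.00, with 14 higher and 20 lower. COL1A2, a chain of type I collagen, went from 25.8 ± 0.866 to 0.809 ± 0.101 FPKM (-4.84), and S100A4, a calcium-binding protein of motile cells, from 235 ± 14.4 to 13.2 ± 1.12 (-4.14). CCN1 and CCN2, matricellular proteins, rose from 14.7 ± 0.397 to 77.1 ± 5.13 FPKM (2.38) and from 0.202 ± 0.0499 to 2.04 ± 0.463 (2.81, and 1.33 with a pseudocount of 1). Of 9 fibroblast and stellate cell markers with a row, 8 were below 0.1 FPKM in both groups. The summed level of all 9 was 0.282 to 0.377 FPKM with DMSO and 0.105 to 0.125 with HPC. COL3A1, the marker above that limit, had means of 0.22 with DMSO and 0.0377 with HPC. PDGFRB, among the low markers, went the other way, at 0.0019 and 0.0568.

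In a list of intermediate filament and linker genes that leaves out the keratins, which are given above, 8 were tested, and 7 fell and MACF1 was not called. That is 87.5% called, close to the 87.7% of all tested genes, and 87.5% lower against 44.8%. The median log2 fold change was -1.23, and -0.39 with no filter, with 1 higher and 8 lower of 16. NES (nestin) fell from 1.52 ± 0.177 to 0.0442 ± 0.0284 FPKM (-3.51, with -1.27 at a pseudocount of 1 and -4.99 at 0.01) and LMNB1 (lamin B1) from 19.1 ± 0.391 to 4.07 ± 0.380 (-2.21). PLEC, the linker plectin (named after its values were seen), fell by 1.37 on the log2 scale.

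FN1 itself did not pass the filter, but 16 genes of fibronectin receptors and assembly partners were tested, and 7 rose, 8 fell and 1 was not called (43.8% higher and 50% lower, against 42.9% and 44.8% of all tested genes). The median was -0.05, and -0.22 with 4 higher and 9 lower when scaled to non-mitochondrial genes, or -0.24 with 7 higher and 14 lower at a filter of 0.1 FPKM. ITGB1, the beta subunit of the main fibronectin receptor, rose from 64.8 ± 1.65 to 92.0 ± 1.73 FPKM (0.51), and FERMT1 (kindlin-1) from 5.50 ± 0.313 to 13.7 ± 0.579 (1.30). TNS3 (tensin 3) fell from 15.2 ± 0.675 to 2.06 ± 0.178 (-2.83), and FBLN1 (fibulin 1) fell by 1.46 on the log2 scale. ITGA5, the alpha subunit of that receptor, was at 2.03 ± 0.106 and 2.01 ± 0.0425 FPKM and was not called.

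**Figure D3:**
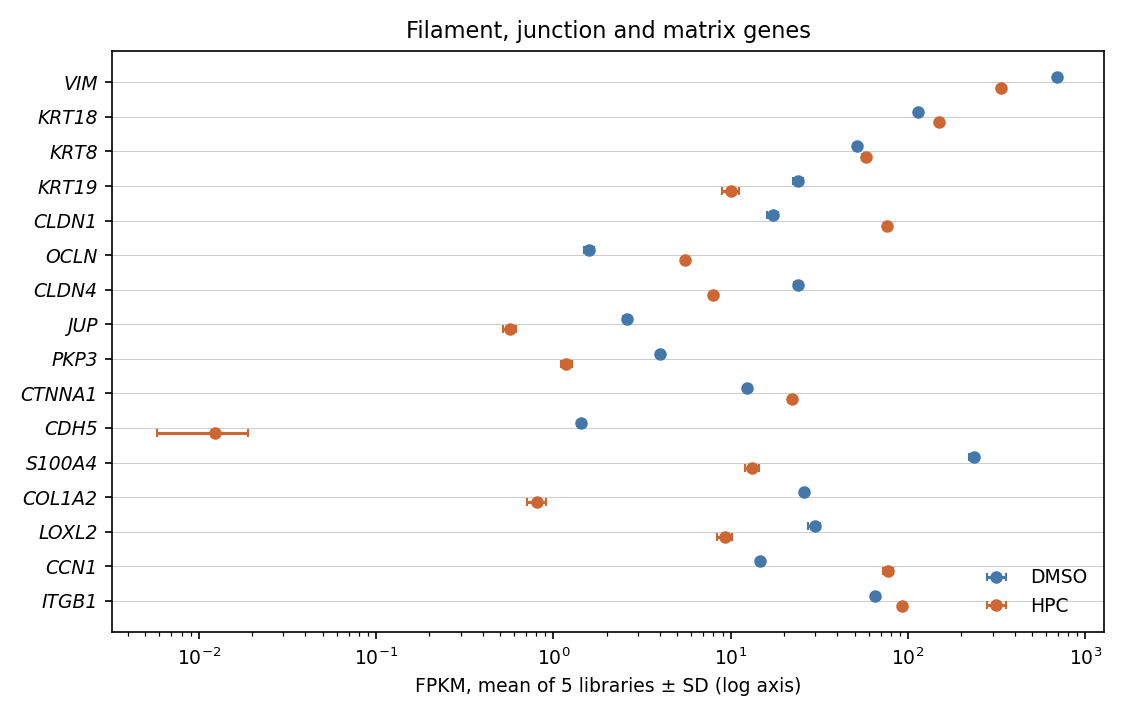
Mean FPKM ± SD (log axis, n = 5 per group) of filament, junction and matrix genes with DMSO and HPC; the genes were picked for display after their values were seen. VIM, KRT19, CLDN4, JUP, PKP3, CDH5, S100A4, COL1A2 and LOXL2 were lower with HPC, and KRT18, KRT8, CLDN1, OCLN, CTNNA1, CCN1 and ITGB1 higher. The rise of KRT8 was small.

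Of 29 tested corepressors that SNAI1 and ZEB1 recruit, 17 fell, 10 rose and 2 were not called (58.6% lower and 34.5% higher, against 44.8% and 42.9% of all tested genes). The median was -0.37, and -0.54 with 6 higher and 20 lower when scaled to non-mitochondrial genes. EHMT2, a histone H3 lysine methyltransferase, fell from 2.87 ± 0.120 to 0.815 ± 0.0266 FPKM (-1.70), and LOXL2, a lysyl oxidase that stabilises Snail, from 29.7 ± 2.24 to 9.32 ± 0.899 (-1.66). PRMT5, an arginine methyltransferase, rose from 4.36 ± 0.1296 to 7.44 ± 0.2 (0.76), and WTIP, of the Ajuba family, by 0.52.

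Genes that control the stability or activity of these factors were divided: of 31 tested, 15 rose, 11 fell and 5 were not called (48.4% higher and 35.5% lower, against 42.9% and 44.8% of all tested genes). When scaled to non-mitochondrial genes the balance turned to 13 higher and 15 lower, and the median from 0.06 to -0.10, while it was 0.24 at a filter of 5 FPKM. The ubiquitin ligase genes SIAH2 and MDM2 rose from 7.32 ± 0.430 to 18.0 ± 0.709 FPKM (1.29) and from 1.57 ± 0.0753 to 3.87 ± 0.243 (1.25). The phosphatase genes CTDSP1 and CTDSP2, whose products stabilise Snail, fell by 1.50 and by 0.92 on the log2 scale.

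Of 25 tested ligands, receptors and mediators that induce the transition, 14 fell, 7 rose and 4 were not called (56.0% lower and 28.0% higher, against 44.8% and 42.9% of all tested genes). The median was -0.17, with -0.34 when scaled to non-mitochondrial genes, -0.08 at a filter of 5 FPKM and -0.04 with no filter. LIF, a cytokine of the interleukin-6 family, rose from 8.93 ± 0.536 to 49.4 ± 2.18 FPKM (2.45) and FGF2 from 3.78 ± 0.246 to 18.4 ± 1.25 (2.25). FZD2, a Wnt receptor, fell from 8.59 ± 0.792 to 2.37 ± 0.236 (-1.82), and SMAD3, a mediator of TGF-beta signals, from 6.95 ± 0.171 to 1.99 ± 0.117 (-1.76). TGFB1, named after its values were seen, rose from 5.83 ± 0.171 to 11.4 ± 0.598 FPKM, while TGFBR2 was at means of 0.0141 and 0.0683.

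**Figure D4:**
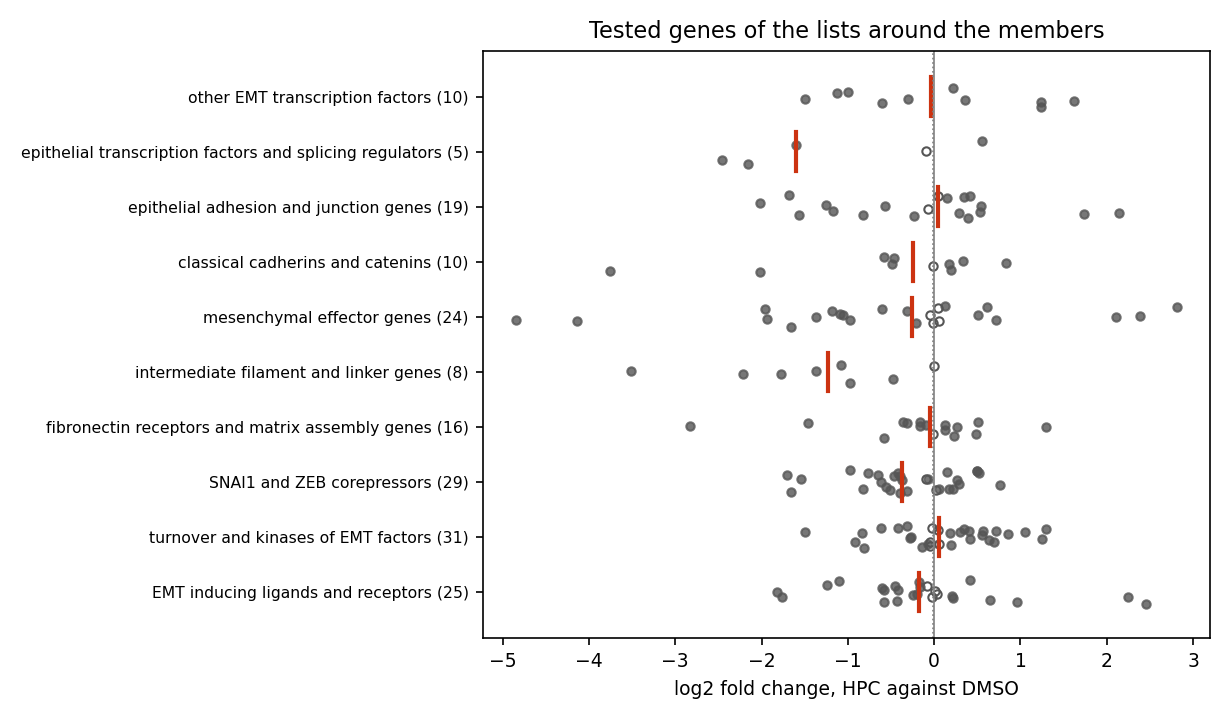
Log2 fold change with HPC of each tested gene in 10 lists around the EMT genes, with the number tested in brackets; filled points were called by limma (adjusted p under 0.05), open points were not, red bars are list medians and the dotted line is the median of all tested genes. Called genes lie on both sides of 0 in 9 of the lists, and the intermediate filament and linker list has 7 lower and 0 higher.

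Over the 10 libraries, the profile of SNAI1 was most like those of SEC24D (Pearson r = 0.998), AARS1 (0.9973) and SELENOM (0.9972), among 195 genes with r over 0.99. That of VIM was most like POLD1 (0.9992), LRPPRC (0.9991) and C2CD5 (0.999), among 991 genes. These correlations are a description: the 10 points share the 2 groups, which differed in most tested genes.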

How the data were processed

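The 10 libraries hold RNA from MIA PaCa-2 cells. The labels' protocols describe poly(A) selection and paired-end sequencing. The authors deposited FPKM per gene. Per the submitters' processing notes, fastp 0.23.2, STAR 2.7.7a, edgeR and GRCh38.p13 were used. The counter and annotation were not given in the sources used here. Of 15208 genes above 0 in at least 3 libraries, 100.0% had values that were whole multiples of 1 step, within 0.001. In 1390 genes with few counts, the variance over the mean among DMSO libraries had a median of 4.09, where independent counts give 1, so no counting intervals are given. Coordinates and lengths are from GENCODE 29 on GRCh38.

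The groups were compared with limma 3.58.1 (R 4.3.3; trend and robust, two-sided, Benjamini-Hochberg, threshold 0.05) on log2(FPKM + 0.1). Further work used SciPy 1.17.1, pandas 2.3.3 and NumPy 2.4.6 in Python 3.11.15, with plots from matplotlib 3.10.9.

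The genes and lists were chosen with earlier results of these data known. Named from each list were the called genes whose mean reached 1 FPKM in either group and that ranked in the top 2 by rise or by fall. The rule also named classical cadherins at that level, ductal markers, and the 3 genes closest in profile to SNAI1 and to VIM. Of the remaining ductal markers, KRT7 had means of 0.226 FPKM with DMSO and 0.0352 with HPC, MUC1 0.808 and 0.0650, ONECUT1 0.247 and 0.168. CFTR, SPP1 and AQP1 were low, and 1 gene the rule named is not reported here. Summed FPKM of the ductal markers was 47.7 to 52.6 with DMSO and 17.0 to 21.4 with HPC. In the same order it was 3.55 to 4.40 and 8.48 to 11.1 for immune markers. It was 2.10 to 2.41 and 0.111 to 0.240 for endothelial markers, and 0 to 0.0268 and 0 to 0.0148 for acinar and endocrine markers. The higher immune sum came from CD68 (means 2.75 and 9.77). CD14 (0.487 and 0.0739), LYZ (0.467 and 0.053) and ITGAM (0.106 and 0.04) were lower with HPC. The other immune markers with a row were below 0.1 FPKM in both groups. Alternatives changed the pseudocount, filter, scaling, block, test and libraries, and an added one, chosen after seeing the data, used merged exon lengths.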

Additional observations from a re-analysis of the deposited data

Results flagged for a closer look

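In 6 of 101 groups of 5 libraries checked, 1 library stood apart from the other 4 by Dixon's criterion, which chance alone meets in about 1 in 20 groups. Of these groups, 3 hold genes near 0, where 1 library with any signal stands apart: ZEB2 with HPC (library 2, 0.0003554 FPKM), EPCAM with DMSO (library 1, 0.009847) and EPCAM with HPC (library 4, 0.0111). SPP1 with HPC was lowest in library 3, at 0. In the DMSO group, CDH5 was highest in library 2 (1.499) and LMNB1 in library 1 (19.8), both far from their HPC values.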

How the results depend on the processing

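SNAI1, ZEB1 and VIM kept their direction in each alternative in which they were tested. The log2 fold change ranged from 1.52 to 2.10 for SNAI1, 0.29 to 0.55 for ZEB1 and -1.23 to -0.94 for VIM, and ZEB1 was not called at a 1.5-fold threshold. Scaled to non-mitochondrial genes, the values were 1.85, 0.30 and -1.23. With a filter of 5 FPKM in 5 libraries, 0 of the genes were higher, since neither SNAI1 nor ZEB1 was tested, and over all genes 1969 were higher and 1836 lower, from fewer genes tested. At the 1.5-fold threshold 1 of the genes was higher, and 1188 genes were higher and 1496 lower over all. Without single libraries, the EPCAM difference (main value 0.003) lay between -0.027 and 0.03 and that of FN1 (main value 0.069) between 0.053 and 0.089. After scaling to non-mitochondrial genes the FN1 difference was 0.049. Of 854 alternatives over 40 named genes, 849 kept direction and call, and 5 lost the call (ZEB1, KLF4, NECTIN1, ITGB1 and WTIP, each at 1.5-fold). Most of these genes were named for a large, called change in the same libraries, so this count was largely set by their choice. Alternatives in which a gene did not pass the filter are left out of it.

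With a replicate block, 2 of the genes were higher and 1 lower, and 3892 genes were higher and 4077 lower over all. Same-numbered libraries correlated between -0.06 and 0.20, and 2 of 5 correlated best with their own number, so the numbers were not taken to pair the libraries.

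Limits: the deposited lengths lower genes with many transcripts, strand is not given, the share of mitochondrial RNA differed between the groups, and no culture or day is named. Of the 5 genes below 0.1 FPKM, all but FN1 rest on few counts.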
